A study of Drosophila melanogaster with 6 samples.

Results

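Odorant molecules that enter a sensillum of the fly antenna must be removed again, and enzymes that hydrolyse or conjugate small molecules are among the proteins assigned to this task. The genes described here are the UDP-glycosyltransferases (Ugt, which attach a sugar to a hydroxyl or similar group), the cytosolic glutathione transferases of classes D, E, O, S, T and Z (Gst, which attach glutathione to reactive compounds) and the esterases whose symbol begins with Est (which split esters, a common class of fruit odours and of fly pheromones). The rule for them used the FlyBase symbol and no measured value, although earlier results of these data were known when it was written. The rule found 73 genes among the 17698 gene identifiers of the deposited counts, 35 Ugt, 35 Gst and 3 Est genes. The symbols do not show that a gene acts on odorants, and many members of these families are known mainly from detoxification in other tissues.

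RNA came from whole antennae of female *Drosophila melanogaster* aged 2 to 5 days, 350 females per genotype and replicate, reared at 25 °C, with 3 E93RNAi and 3 Control samples. E93RNAi flies carry a hairpin transgene against *Eip93F* (E93), which encodes an ecdysone-induced transcription factor, and Control flies (described as VDRC60100) carry the empty landing-site strain. Both genotypes carry 1 copy of peb-Gal4 and UAS-Dcr2, so *Dcr-2*, which strengthens RNA interference, is driven in Control as well. The genotypes printed in the treatment protocol attach the hairpin line KK108140 to the control and the strain VIE-260B to E93RNAi, the reverse of the titles, and the titles were followed here. peb-Gal4 is a driver used widely for sensory neurons of the antenna, whereas several of these enzymes are made in support cells or epithelium. RNA of whole antennae does not separate these cells, and fewer cells of a type and less RNA per cell cannot be told apart in any result that follows.

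Total gene counts were 16639918 to 18400979 per sample, so that 3 counts, taken as the smallest countable signal, equal 0.163 to 0.182 CPM (counts scaled to a common library size). The targeted *Eip93F* was at 334 ± 15.1 CPM in E93RNAi and 382 ± 15.8 CPM in Control (SD, n = 3), a log2 change of -0.19 (edgeR adjusted p = 0.0119), and reads from the hairpin itself cannot be told apart from those of the gene. Every E93RNAi sample was below every Control sample. Fold changes below are log2 of E93RNAi over Control with their standard error (SE), and a gene is called changed at an adjusted p under 0.05 in edgeR's quasi-likelihood test over all 9237 tested genes.

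Of the 73 genes, 56 passed the filter on low counts and 30 of these (53.6%) changed, 15 higher and 15 lower in E93RNAi. Over all tested genes 24.3% changed, 13.8% higher and 10.5% lower. The median log2 fold change was -0.07 over the 56 tested members and 0.00028 over all tested genes. Groups whose samples did not overlap were seen in 35 of the 56 members, against 3462 of all 9237 tested genes (37.5%). Most changes were small. Only 5 called members moved by 1 log2 unit or more, all of them upward. Over all tested genes 5.01% did so, 3.67% upward and 1.34% downward. The 5 were *GstD5*, *GstD6*, *GstD7*, *Ugt302K1* and *Ugt37C2*. The other 17 genes had too few counts to be tested, 14 of them Ugt genes, and 6 had no count in any sample. A gene that is high in only 1 group can pass the filter through that group, so counts over the tested members do not describe all 73.

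**Figure D1:**
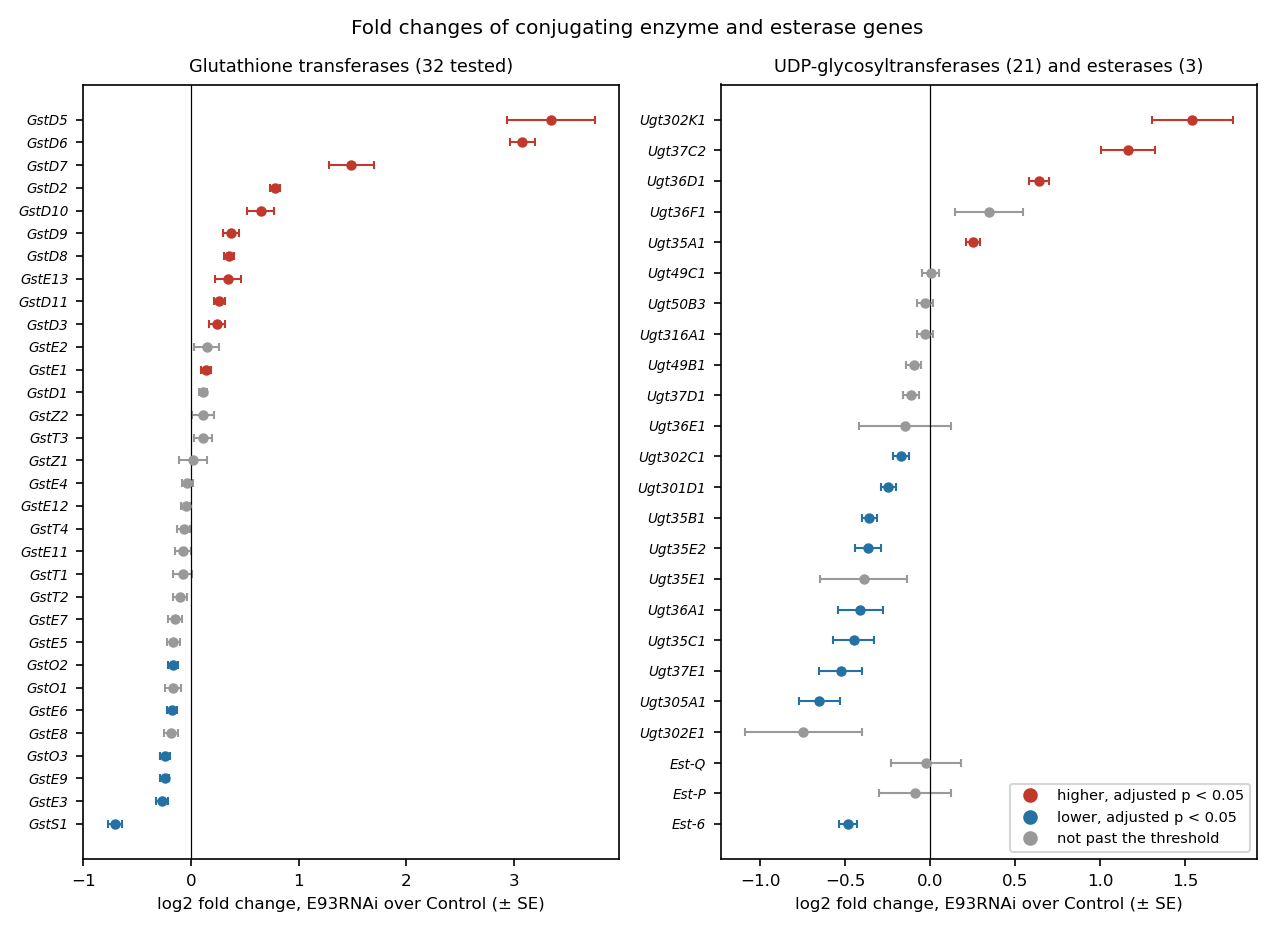
Log2 fold changes of E93RNAi over Control for the 56 tested members, with bars of 1 SE. Points in red were higher, in blue lower and in grey not past the threshold. The 5 called changes of 1 log2 unit or more all lie to the right, and 3 of them are GstD genes.

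Classes D and E are the large insect-specific classes of glutathione transferases, known for their part in insecticide detoxification and oxidative stress. All 11 GstD genes lie in 1 run of 20.8 kb on arm 3R (12364776 to 12385624, BDGP6.54), a cluster formed by repeated duplication. Of its 10 tested genes 9 rose, none fell, and the groups did not overlap for any of the 10. Over all tested genes 13.8% rose, 10.5% fell, and 37.5% had groups that did not overlap. The median log2 fold change of the class was 0.51, with a range of 0.11 to 3.35. The summed level of class D was 1949, 1900.5 and 1928 CPM in E93RNAi replicates 1 to 3, against 1667, 1581 and 1669 CPM in Control replicates 1 to 3. Every E93RNAi sample was above every Control sample (exact permutation test, two-sided p = 0.1, the smallest value that 3 samples against 3 allow).

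*GstD5* and *GstD6* are neighbours on the same strand and had the largest changes of all members. *GstD6* had 398, 385 and 396 counts in E93RNAi replicates 1 to 3, against 48, 37 and 51 counts in Control replicates 1 to 3, or 22.1 ± 1.05 CPM against 2.61 ± 0.433 CPM (SD, n = 3). This is a log2 change of 3.08 ± 0.12 (SE; edgeR adjusted p = 1.76e-09), about 8.45-fold. *GstD5* had 67, 185 and 107 counts in E93RNAi and 10, 17 and 7 counts in Control, a log2 change of 3.35 ± 0.41 (SE; edgeR adjusted p = 6.25e-05). With so few counts in Control, *GstD5* passed the filter on low counts through its E93RNAi samples. The pair differed in spread. *GstD6* was nearly level among the E93RNAi samples, whereas *GstD5* was highest in replicate 2 and lowest in replicate 1, so that the reads of *GstD6* per 100 reads of *GstD5* were 594, 208 and 370.1 in E93RNAi replicates 1 to 3. The same ratio was 480, 218 and 729 in Control, and the groups overlapped.

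The other members of the cluster rose by less. *GstD7*, the next gene, had 58, 62 and 80 counts in E93RNAi against 26, 22 and 21 counts in Control (log2 change 1.49 ± 0.21 SE, edgeR adjusted p = 0.000224). *GstD2*, known in the fly for acting on the isothiocyanates of mustard plants, was at 132, 132 and 127 CPM in E93RNAi and 76.5, 71.8 and 79.6 CPM in Control (log2 change 0.78 ± 0.047 SE, edgeR adjusted p = 1.4e-07). *GstD10*, at the other end of the run, was at 10.4, 8.6 and 9.05 CPM in E93RNAi and 6.75, 5.54 and 5.64 CPM in Control (log2 change 0.65 ± 0.12 SE, edgeR adjusted p = 0.00207). In none of these 3 genes did the groups overlap. *GstD9*, *GstD8*, *GstD11* and *GstD3* rose by 0.24 to 0.38 on the log2 scale. *GstD3* was the least secure of these, and its adjusted p went above 0.05 in edgeR, to between 0.0641 and 0.118, without E93RNAi replicate 2, E93RNAi replicate 3, Control replicate 2 or Control replicate 3.

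*GstD1*, the most abundant gene of the cluster and a common reporter of oxidative stress in flies, was at 1112, 1101 and 1110.4 CPM in E93RNAi and 1019, 1007 and 1050.0 CPM in Control. Its log2 fold change of 0.11 ± 0.041 (SE) missed the threshold (edgeR adjusted p = 0.069), although the groups did not overlap. It passed with the replicate number as a block (edgeR adjusted p = 0.0368) and with library totals as the scaling (edgeR adjusted p = 0.023). *GstD4*, the remaining gene, was too low for the test, with 6, 7 and 7 counts in E93RNAi and 18, 9 and 20 counts in Control, so it was the only listed GstD gene with a lower sum in E93RNAi. Without a filter on low counts its log2 fold change was -1.25 (edgeR adjusted p = 0.0379). It stands between *GstD3* and *GstD5* in the row. The GstD genes are related copies, and reads with more than 1 alignment (8.47% to 8.85% of the listed reads per sample) were kept out of the gene counts. How this divided reads among the copies was not tested.

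**Figure D2:**
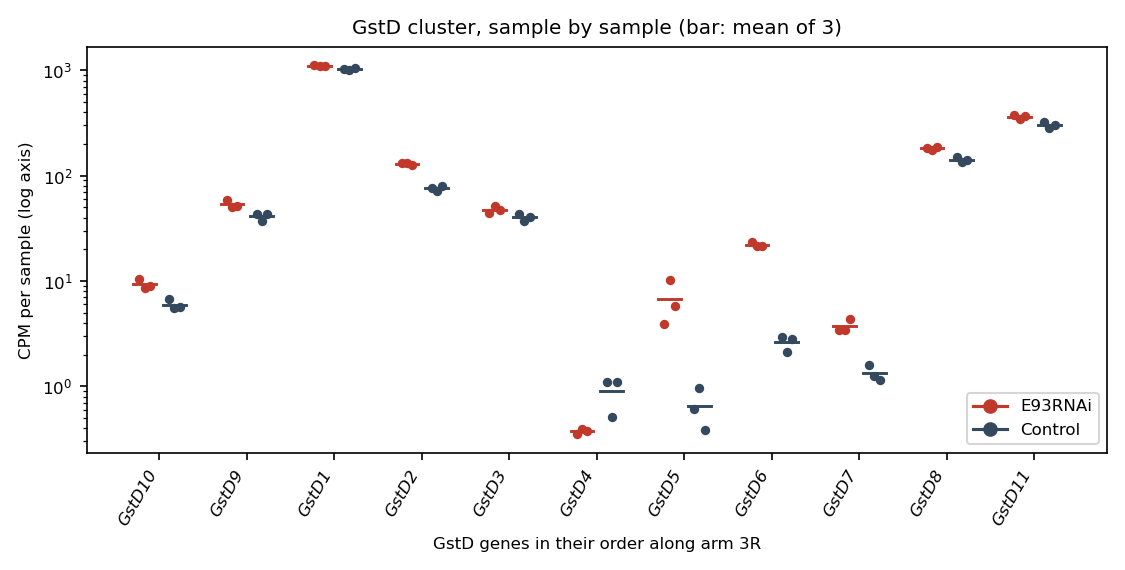
CPM of the 11 GstD genes in each sample, on a log axis, in their order along the chromosome arm, with E93RNAi left of Control. Bars are means of 3 samples. The gap is widest at *GstD5* and *GstD6*, *GstD4* between its neighbours is lower in E93RNAi, and the abundant *GstD1* is nearly level.

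The ratio of neighbours within a library does not depend on how libraries are scaled. The reads of *GstD6* per 100 reads of *GstD8*, which lies 1 gene farther on after *GstD7*, were 12.8, 12.2 and 11.6 in E93RNAi and 1.95, 1.56 and 1.99 in Control. The reads of *GstD2* per 100 reads of its neighbour *GstD3* were 299.6, 255 and 269 in E93RNAi and 177, 195 and 195 in Control. Both ratios were higher in every E93RNAi sample. These pairs, like the other pairs of neighbours given as ratios, were chosen with the fold changes known, so the ratios are a description and carry no test. Outside the run, *CG33098*, the next tested gene beyond *GstD11*, also rose, to 1.10 ± 0.0717 CPM in E93RNAi, against 0.0993 ± 0.128 CPM in Control, which is under the level of 3 counts (SD, n = 3; edgeR adjusted p = 0.000583). It passed the filter on low counts through its E93RNAi samples. Of the following tested genes on that side, *Cyp9f3* did not pass (log2 change -0.07) and *Cyp9f2* fell by 0.24 log2 units (edgeR adjusted p = 0.00302). The nearest tested genes on the other side, *CG10038*, *MBD-R2* and *CG4115*, had log2 fold changes of 0.11, 0.10 and 0.24 and did not pass the threshold. Neither did the tested genes *CG10035* and *lncRNA:CR46015*, which lie within the run.

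The GstE genes behaved differently. Of 14 listed, 12 were tested, 2 rose and 3 fell, and the median log2 fold change was -0.11. Over all tested genes 13.8% rose and 10.5% fell. *GstE4* was the most abundant glutathione transferase of the antenna. It was at 3005, 2842 and 3015 CPM in E93RNAi and 3234, 2877 and 2958 CPM in Control, and these samples overlapped (log2 change -0.03 ± 0.052 SE, edgeR adjusted p = 0.715). It took 42.5% ± 0.517 of all Gst counts in E93RNAi and 43.6% ± 0.722 in Control (SD, n = 3). *GstE3* (206 ± 12.1 against 248 ± 15.2 CPM), *GstE9* (146 ± 3.53 against 173 ± 5.03 CPM) and *GstE6* (437 ± 2.82 against 494 ± 26.7 CPM, E93RNAi against Control, SD, n = 3) fell by 0.26, 0.25 and 0.18 on the log2 scale. *GstE9* overlaps *imd* on the other strand. *GstE5*, *GstE7* and *GstE8* had fold changes of the same sign, between -0.15 and -0.19, and missed the threshold. With the replicate number as a block *GstE5* and *GstE7* passed it (edgeR adjusted p = 0.0328 and 0.0212).

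*GstE1*, which follows *GstE10* in the same 13.2 kb run on arm 2R (18396638 to 18409835, BDGP6.54), rose by 0.14 ± 0.046 (SE) log2 units (edgeR adjusted p = 0.0396). The reads of *GstE1* per 100 reads of *GstE3* were 48.0, 50.4 and 47.3 in E93RNAi and 35.3, 37.2 and 37.3 in Control, higher in each E93RNAi sample. *GstE13*, which lies apart from the run, rose by 0.34 ± 0.12 (SE; edgeR adjusted p = 0.0496). Both calls are marginal. *GstE1* lost its call with DESeq2 (adjusted p = 0.117), without a filter (adjusted p = 0.0506), and in 5 of the 6 fits that each left out a library, all but that without Control replicate 1 (adjusted p = 0.0531 to 0.163). *GstE13* lost its call with DESeq2 (adjusted p = 0.118), DESeq2 size factors, limma voom, a minimum mean of 10 counts, and without E93RNAi replicate 1, E93RNAi replicate 3, Control replicate 2 or Control replicate 3 (adjusted p = 0.11 to 0.202). Its samples overlapped between the groups. *GstE1* overlaps *GstE10*, and *GstE13* overlaps *CG18659*, on the other strand, and the strand setting of the counting is not given in the sources used here. *GstE10* itself had 12, 11 and 7 counts in E93RNAi and 3, 6 and 2 counts in Control and was not tested. *GstE14*, known as an enzyme of ecdysteroid synthesis, had 1 count in all 6 samples together. *GstE12*, another abundant member, had a log2 change of -0.05 ± 0.043 (SE; edgeR adjusted p = 0.487). It overlaps *CG3894* on the other strand.

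The smaller classes were lower or showed no call. *GstS1*, the single sigma-class enzyme, known in flies for conjugating products of lipid peroxidation and for its abundance in flight muscle, had the largest fall of any called member. It was at 28.7, 30.8 and 32.4 CPM in E93RNAi and 47.2, 48.8 and 54.1 CPM in Control, with no overlap (log2 change -0.71 ± 0.067 SE, edgeR adjusted p = 7.21e-06). Omega-class enzymes reduce substrates such as dehydroascorbate. *GstO3* fell by 0.24 log2 units (edgeR adjusted p = 0.00172) and *GstO2* by 0.17 (edgeR adjusted p = 0.0199), while *GstO1*, at 22.9 ± 1.28 against 25.8 ± 2.13 CPM (E93RNAi against Control, SD, n = 3), missed the threshold. The call of *GstO2* was lost in DESeq2 (adjusted p = 0.0521) and without E93RNAi replicate 2, E93RNAi replicate 3, Control replicate 1 or Control replicate 3 (adjusted p = 0.0508 to 0.0896). *GstO2* overlaps *se* on the other strand. None of the 4 theta-class and 2 zeta-class genes passed, with log2 fold changes from -0.11 to 0.11. Among them *GstT2* overlaps *CG12926* on the other strand. The zeta class includes the isomerase of tyrosine breakdown.

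**Figure D3:**
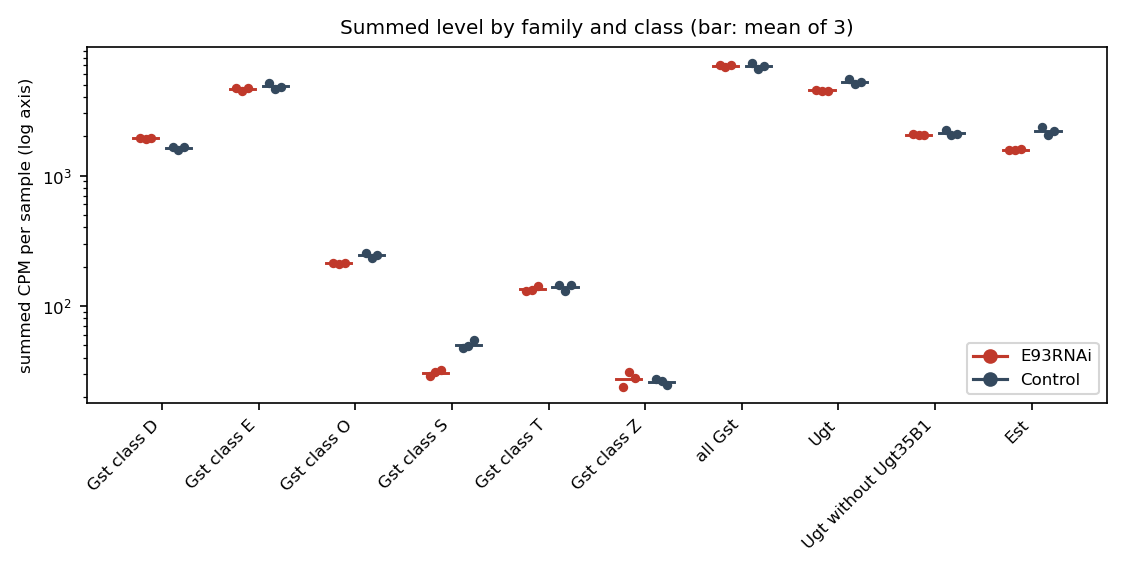
Summed CPM of each Gst class, of all Gst genes, of the Ugt genes with and without *Ugt35B1*, and of the Est genes, per sample on a log axis, E93RNAi left of Control, with bars at the mean of 3. Class D is higher and classes O and S are lower in every E93RNAi sample, and the totals of all Gst genes overlap.

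The total of the glutathione transferases showed no difference beyond its spread. All 35 Gst genes together held 7043, 6771 and 7015 CPM in E93RNAi and 7292, 6632 and 6890 CPM in Control, with means of 6943 ± 150 and 6938 ± 333 CPM (SD, n = 3; exact permutation test, two-sided p = 1). Class D averaged 287 CPM more in E93RNAi than in Control. Class E held 4613.5 ± 125 CPM in E93RNAi and 4838 ± 279 CPM in Control, with samples that overlapped (exact permutation test, two-sided p = 0.4). Without *GstE4* class E held 1659 ± 33.2 CPM in E93RNAi and 1815 ± 92.4 CPM in Control (SD, n = 3; log2 ratio -0.129). Every E93RNAi sample was then below every Control sample (p = 0.1 in the same exact test, the smallest possible). Class O held 211 ± 3.36 CPM in E93RNAi and 245 ± 10.9 CPM in Control, without overlap (exact permutation test, two-sided p = 0.1, the smallest possible).

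Among the UDP-glycosyltransferases more called genes fell than rose. Of 35 Ugt genes 21 were tested, 8 fell, 4 rose and 9 did not pass the threshold, and the median log2 fold change was -0.15. Over all tested genes 10.5% fell and 13.8% rose. The family was dominated by *Ugt35B1*, a gene known for its expression in the fly antenna. It was at 2489, 2435 and 2443 CPM in E93RNAi and 3296, 3020.2 and 3120.0 CPM in Control, a log2 change of -0.36 ± 0.046 (SE; edgeR adjusted p = 9.6e-05), with every E93RNAi sample below every Control sample. Its share of all Ugt counts was 54.5% ± 0.142 in E93RNAi and 59.7% ± 0.228 in Control (SD, n = 3). The summed level of all Ugt genes was 4507 ± 51.2 CPM in E93RNAi and 5265 ± 231 CPM in Control (log2 ratio -0.22; exact permutation test, two-sided p = 0.1, the smallest possible). Without *Ugt35B1* the log2 ratio was -0.047, and the samples overlapped (p = 0.2 in the same exact test).

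*Ugt35B1* lies in a run of 10 Ugt genes over 51.3 kb of arm 3R (11126597 to 11177910, BDGP6.54). Of its 8 tested genes 4 fell and 2 rose, against 10.5% and 13.8% of all tested genes. *Ugt35A1*, the neighbour of *Ugt35B1* on the same strand and long known beside it from the antenna, moved the other way. It was at 296 ± 3.21 CPM in E93RNAi and 248 ± 6.19 CPM in Control (SD, n = 3), a log2 change of 0.25 ± 0.04 (SE; edgeR adjusted p = 0.000535). There were 11.8, 12.3 and 12.0 reads of *Ugt35A1* per 100 reads of *Ugt35B1* in E93RNAi and 7.75, 8.07 and 7.88 in Control, so this ratio was higher in every E93RNAi sample. *Ugt35E2*, on the other side of *Ugt35B1*, fell by 0.36 log2 units (edgeR adjusted p = 0.00386), and its reads per 100 of *Ugt35B1* averaged 1.004 ± 0.0868 in E93RNAi and 1.009 ± 0.0145 in Control (SD, n = 3).

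Other members of this run also differed among themselves. *Ugt302K1* had 64, 58 and 51 counts in E93RNAi and 15, 25 and 18 counts in Control, a log2 change of 1.54 ± 0.24 (SE; edgeR adjusted p = 0.00042), the largest rise of the Ugt family. *Ugt302C1*, with much higher counts, fell by 0.17 on the log2 scale (342 ± 14.5 against 384 ± 13.6 CPM, E93RNAi against Control, SD, n = 3; edgeR adjusted p = 0.0181), a call that was lost without E93RNAi replicate 2, E93RNAi replicate 3 or Control replicate 3 (adjusted p = 0.0599 to 0.0972). *Ugt302E1* lies between them, had at most 25 counts in a sample, and did not pass (log2 change -0.75 ± 0.34 SE, edgeR adjusted p = 0.148). *Ugt35C1*, at the end of the run, was at 83.2, 53.6 and 61.5 CPM in E93RNAi and 99.0, 83.9 and 87.7 CPM in Control. E93RNAi replicate 1 came within 1 CPM of the lowest Control sample. Its fall of 0.45 log2 units (edgeR adjusted p = 0.0174) lost its call with DESeq2 (adjusted p = 0.117) and without E93RNAi replicate 2, E93RNAi replicate 3 or Control replicate 1 (adjusted p = 0.0564 to 0.0754).

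**Figure D4:**
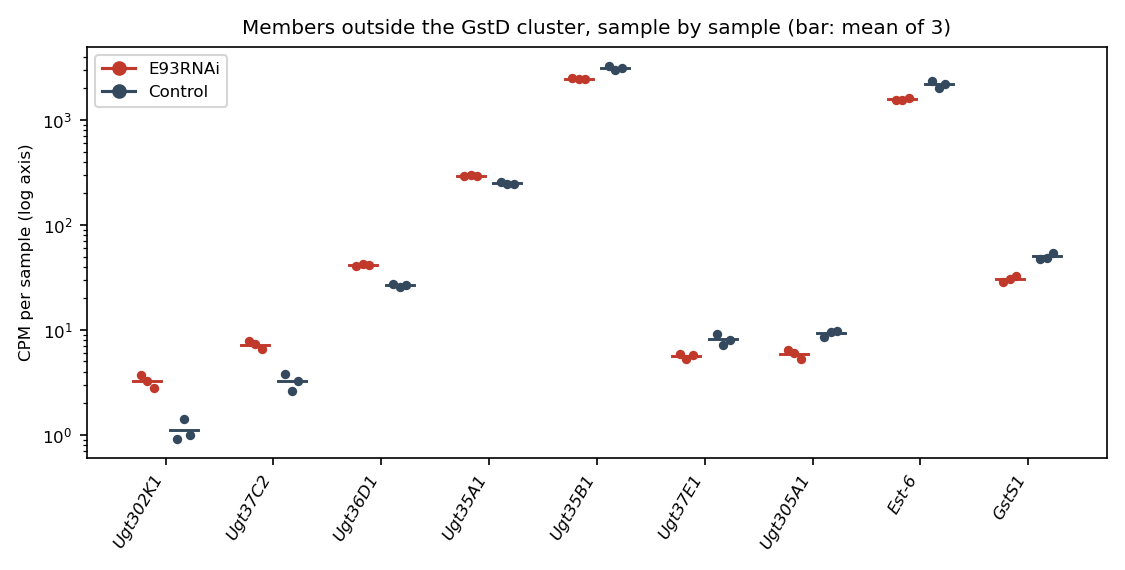
CPM per sample, on a log axis, of 9 members outside the GstD cluster, E93RNAi left of Control, with bars at the mean of 3. The first 4 genes are higher in E93RNAi and the last 5 are lower, and the groups of each gene do not overlap.

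A run of Ugt genes on arm 2L held opposite changes as well. *Ugt37C2*, *Ugt37E1* and *Ugt37D1* follow each other within 7.37 kb (16794211 to 16801584, BDGP6.54). *Ugt37C2* was at 7.9, 7.31 and 6.5 CPM in E93RNAi and 3.77, 2.63 and 3.29 CPM in Control, a log2 change of 1.17 ± 0.16 (SE; edgeR adjusted p = 0.000152). *Ugt37E1*, the next gene, was at 5.85, 5.3 and 5.74 CPM in E93RNAi and 9.18, 7.14 and 8.05 CPM in Control, a log2 change of -0.53 ± 0.13 (SE; edgeR adjusted p = 0.00917). The order of the pair turned round: *Ugt37C2* had 135, 138 and 113 reads per 100 reads of *Ugt37E1* in E93RNAi and 41.1, 36.8 and 40.8 in Control. *Ugt37D1* was far more abundant, at 180.5 ± 2.89 CPM in E93RNAi and 196 ± 11.2 CPM in Control (SD, n = 3), and missed the threshold.

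Another run on arm 2L holds *Ugt36F1*, *Ugt36D1* and *Ugt36E1* (18819344 to 18829059, BDGP6.54). *Ugt36D1* was at 40.4, 42.4 and 41.3 CPM in E93RNAi and 27.4, 25.5 and 26.7 CPM in Control, and so was higher in each E93RNAi sample (log2 change 0.64 ± 0.056 SE, edgeR adjusted p = 4.07e-06). *Ugt36E1*, which has been linked in the fly to the discrimination of odours by olfactory neurons, had 18 to 35 counts per sample and a log2 change of -0.15 ± 0.27 (SE; edgeR adjusted p = 0.76), so a change of moderate size would not be detectable at this depth. It overlaps *CG17597* on the other strand, which was far higher, at 33.75 CPM in E93RNAi and 35.25 CPM in Control on average. *Ugt36F1* missed the threshold (log2 change 0.35 ± 0.2 SE, edgeR adjusted p = 0.256) but was highest in replicate 1 of both groups, and passed with the replicate number as a block (edgeR adjusted p = 0.0258). *Ugt36A1*, elsewhere on the arm, fell by 0.41 log2 units (edgeR adjusted p = 0.0403), with groups that overlapped. Its call was lost with the block (edgeR adjusted p = 0.0544), with library totals, with DESeq2, and without E93RNAi replicate 1, E93RNAi replicate 2, Control replicate 1 or Control replicate 2 (adjusted p = 0.0962 to 0.13). It overlaps *CG15418* on the other strand.

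The remaining Ugt genes were as follows. *Ugt305A1* was at 6.44, 6.03 and 5.26 CPM in E93RNAi and 8.51, 9.48 and 9.8 CPM in Control, without overlap (log2 change -0.65 ± 0.12 SE, edgeR adjusted p = 0.0014). *Ugt301D1* fell by 0.25 log2 units (edgeR adjusted p = 0.0015). *Ugt49C1*, the member with the next highest level per length after *Ugt35B1*, was at 405 ± 3.29 CPM in E93RNAi and 405 ± 29.1 CPM in Control (SD, n = 3; log2 change 0.0028 ± 0.052 SE). *Ugt49B1* had a log2 change of -0.10 ± 0.045 (SE) and missed the threshold, and it overlaps *CG44245* on the other strand. *Ugt316A1* and *Ugt50B3* had log2 fold changes of -0.03 each. Among the untested Ugt genes, *Ugt317A1* had 45 counts over the 6 samples, *Ugt303A1* 14 and *Ugt304A1* 12, and the others had at most 7.

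The Est genes were represented almost wholly by *Est-6*, a secreted carboxylesterase known from the male ejaculatory duct and from the antenna. In the antenna it has been tied to the handling of acetate esters such as the pheromone cis-vaccenyl acetate. *Est-6* was at 1556, 1549.7 and 1606 CPM in E93RNAi and 2348, 2040.3 and 2189.5 CPM in Control. All E93RNAi samples lay below all Control samples, and the log2 fold change was -0.48 ± 0.053 (SE; edgeR adjusted p = 2.79e-05). *Est-6* overlaps *thoc6* on the other strand. *thoc6* fell too, by 0.97 on the log2 scale, and was at 24.2 ± 1.51 CPM in E93RNAi and 47.4 ± 2.04 CPM in Control (SD, n = 3). Its part in the counts of *Est-6* was not tested.

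*Est-P*, the tandem copy directly after *Est-6*, was at 3.65 ± 0.971 CPM in E93RNAi and 3.88 ± 0.671 CPM in Control (SD, n = 3; log2 change -0.09 ± 0.21 SE, edgeR adjusted p = 0.818). *Est-P* also overlaps *thoc6* on the other strand, and *thoc6* had the higher level in both groups. The part of *thoc6* in the counts of *Est-P* was not tested. *Est-Q* was at 3.95 ± 1.17 CPM in E93RNAi and 4.02 ± 0.35 CPM in Control (log2 change -0.02 ± 0.21 SE, edgeR adjusted p = 0.958). With 49 to 93 counts per sample in E93RNAi and 58 to 79 in Control, a moderate change of either gene would not be detectable at this depth.

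Levels of different genes can be compared only per length of exon. On that scale *GstE4* led all members, at 3521 ± 116 CPM per kb in E93RNAi and 3603 ± 223 CPM per kb in Control (SD, n = 3). *Ugt35B1* came next in both groups, at 1469 ± 17.3 CPM per kb in E93RNAi and 1881 ± 83.6 CPM per kb in Control. *GstD1* was at 1314 ± 7.04 CPM per kb in E93RNAi and 1217 ± 26.1 in Control, and *Est-6* at 855 ± 16.7 and 1194 ± 83.7 CPM per kb. In Control *GstD1* and *Est-6* overlapped, whereas in E93RNAi *GstD1* was above *Est-6* in every sample. Among the Ugt genes *Ugt35B1* stood far above *Ugt49C1* (213 ± 1.73 CPM per kb in E93RNAi and 213 ± 15.3 in Control) and *Ugt302C1* (171 ± 7.29 in E93RNAi and 193 ± 6.81 CPM per kb in Control). *GstD6*, in spite of its rise, reached only 28.3 ± 1.35 CPM per kb in E93RNAi, against 3.34 ± 0.555 in Control, and ranked 18 among the 35 Gst genes in E93RNAi, against 30 in Control.

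**Figure D5:**
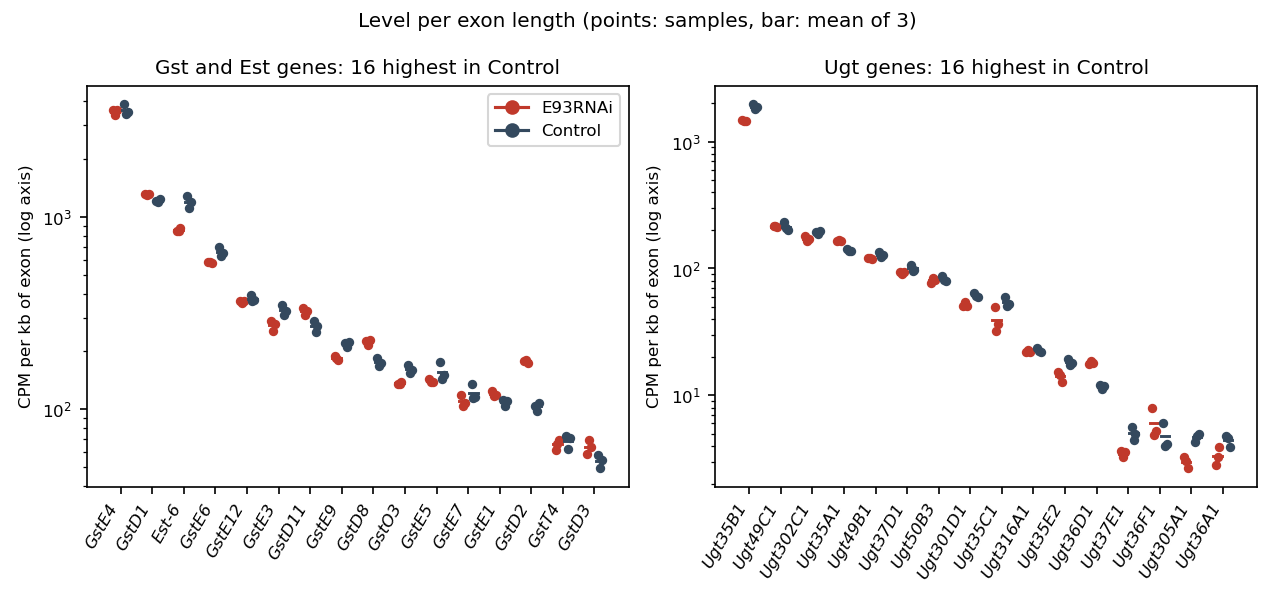
CPM per kb of exon, on a log axis, for the 16 highest Gst and Est genes and the 16 highest Ugt genes, ranked in Control, with points for samples, E93RNAi left of Control, and bars at the mean of 3. *GstE4*, *Ugt35B1*, *GstD1* and *Est-6* stand above all other members.

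Related genes were read from lists chosen by their known function. For the counts in these lists, 24.3% of all tested genes changed, 13.8% higher and 10.5% lower. Glutathione is made by glutamate-cysteine ligase, whose catalytic subunit *Gclc* (621 ± 25.8 against 542 ± 4.18 CPM, E93RNAi against Control, SD, n = 3) and modifier subunit *Gclm* rose by 0.20 and 0.16 log2 units (edgeR adjusted p = 0.00557 and 0.0189). They were 2 of 3 tested genes in a list of 6 for glutathione supply. *Gclm* lost its call with DESeq2 (adjusted p = 0.0979) and without E93RNAi replicate 1, Control replicate 2 or Control replicate 3 (adjusted p = 0.0566 to 0.0866). Of 5 regulators tied to such genes, only *Keap1* changed, a share (20%) near that over all tested genes. It encodes the inhibitor of the stress-response factor Cnc, and it was at 56.1 ± 1.52 CPM in E93RNAi and 73.3 ± 0.854 CPM in Control (SD, n = 3), a log2 change of -0.38 ± 0.044 (SE; edgeR adjusted p = 3.56e-05). *cnc* itself had a log2 change of -0.03 and *maf-S*, its partner, of -0.02, neither past the threshold. None of the 2 tested genes for the supply of UDP-glucuronate and none of the 2 tested sulfotransferases passed.

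Export pumps remove conjugates and other compounds from cells. Of 4 tested pumps *Mdr49* and *Mdr65*, ABC transporters, rose by 0.75 and 0.54 log2 units (edgeR adjusted p = 3.41e-07 and 1.1e-05), and *MRP* and *Mrp4* did not pass. *Mdr65* is known from the glia of the blood-brain barrier. Of 6 glial markers 5 were also higher in E93RNAi, against 13.8% of all tested genes. Whether glial content had a part in the rise of *Mdr65* was not tested. Of 21 further genes of the carboxylesterase fold 20 were tested, 6 fell and 1 rose. *Jhedup*, an esterase of the antenna known for hydrolysing food esters, was at 7581 CPM in E93RNAi and 8349 CPM in Control on average and did not pass (log2 change -0.14, edgeR adjusted p = 0.0997), but it passed with the replicate block (edgeR adjusted p = 0.0442). *alpha-Est10*, *alpha-Est7*, *alpha-Est9*, *alpha-Est8* and *alpha-Est1* fell by 0.13 to 0.39 on the log2 scale, and so did *Jhe* by 0.37, while *Gli*, an adhesion protein without esterase function, rose by 0.27. *Jhe* lost its call in 6 of 13 alternatives, among them those without E93RNAi replicate 1, E93RNAi replicate 2, Control replicate 2 or Control replicate 3 (adjusted p = 0.0999 to 0.19). *alpha-Est1* lost it in 7 of 13, with library totals and without any 1 of the 6 libraries (adjusted p = 0.0591 to 0.103).

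The epoxide hydrolases *Jheh1*, *Jheh2* and *Jheh3* fell, 3 of 3, by 0.29 to 0.66 on the log2 scale. *Jheh3* was at 92.9 ± 1.97 CPM in E93RNAi and 146 ± 3.66 CPM in Control (SD, n = 3; edgeR adjusted p = 2.19e-07). The microsomal glutathione transferase *Mgstl* fell by 0.45 (edgeR adjusted p = 7.82e-05), 1 of 3 tested genes in its list, while *eEF1gamma* (log2 change 0.06) and *gfzf* (log2 change 0.12) did not pass. Of the 7 tested redox enzymes all 7 fell, by 0.15 to 0.42 on the log2 scale. They were *Sod1*, *Sod2*, *Cat*, *Cpr* (the reductase that feeds electrons to cytochromes P450), *Prx2*, *Prx3* and *Prx6a*. *Sod1* and *Prx3* had the weakest calls (edgeR adjusted p = 0.0425 and 0.0498), and both were lost with library totals and without E93RNAi replicate 1, E93RNAi replicate 2 or Control replicate 2. *Sod1* was lost without Control replicate 3 too, and *Prx3* without Control replicate 1 (adjusted p = 0.0703 to 0.17 and 0.0707 to 0.182 over these libraries). *Prx3* was lost with DESeq2, limma voom and a minimum mean of 10 counts as well. *Sod2* and *Prx2* lost their calls without E93RNAi replicate 2 (adjusted p = 0.0789 and 0.0582), and *Cat* and *Prx2* without Control replicate 3 (adjusted p = 0.0557 and 0.0505).

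Markers of cell types moved between the groups, and their part in the results above was not tested. For the counts of markers that follow, 24.3% of all tested genes changed, 13.8% higher and 10.5% lower. Of 6 glial markers 5 rose and none fell, with summed levels of 810.1 to 934 CPM in E93RNAi and 697 to 746 CPM in Control. Of 7 markers of olfactory support cells 3 rose and 2 fell (29580 to 31800 CPM in E93RNAi and 26420 to 27190 CPM in Control). The 3 that rose were *Obp28a* (5875 against 3027 CPM), *Obp83a* (12423 against 10729 CPM) and *lush*, E93RNAi against Control. The 2 that fell were *Obp59a* (596 against 1326 CPM) and *Obp84a*. Of 7 neuronal markers *Ir8a* rose, *Orco* and *Ir25a* fell, and *elav*, *nSyb*, *Syt1* and *brp* did not pass. Their sums were 5392 to 5575 CPM in E93RNAi and 5824 to 6010 CPM in Control. *Orco* had the largest part in these sums, at 2887 ± 40.0 CPM in E93RNAi and 3313 ± 53.7 CPM in Control (SD, n = 3). Of 6 muscle markers 3 were tested and 2 rose. The sums were 20.2, 5.64 and 23.7 CPM in E93RNAi replicates 1 to 3 and 3.998 to 5.23 CPM in Control. Of the untested ones, *up* had 27, 4 and 43 counts in E93RNAi replicates 1 to 3 and 4, 8 and 8 in Control. *wupA* had 15, 3 and 23 counts in E93RNAi and 3, 4 and 1 in Control. *Act88F* had at most 2 counts in any sample. Of 5 Malpighian tubule markers 3 were tested, and *Irk2* and *Oat* rose. The sums were 105 to 143 CPM in E93RNAi and 63.6 to 79.1 CPM in Control. They were mostly *Irk2* (101 ± 18.8 against 53.7 ± 8.70 CPM, E93RNAi against Control, SD, n = 3). *CapaR* had no count, and *Uro* had 2 counts in E93RNAi replicate 2 and none elsewhere. Of 3 Johnston organ markers 2 were tested and *nompC* rose. The sums were 47.4 to 57.7 CPM in E93RNAi and 8.85 to 11.0 CPM in Control. They were mostly *nompC*, at 51.4 ± 5.65 CPM in E93RNAi and 7.87 ± 0.776 CPM in Control (SD, n = 3). *iav* did not pass (1.25 CPM in E93RNAi and 1.86 CPM in Control). *nan* was not tested (0.239 CPM in E93RNAi and 0.363 CPM in Control). Of 8 photoreceptor markers 5 were tested, *Rh4*, *trp* and *ninaC* rose, and *norpA* fell. Their sums were 288.5 to 311 CPM in E93RNAi and 329 to 358 CPM in Control. They were mostly *norpA* (286 ± 12.5 against 339 ± 16.1 CPM, E93RNAi against Control, SD, n = 3). *Rh4* had 18, 11 and 14 counts in E93RNAi and 1, 2 and 1 in Control, and passed the filter through its E93RNAi samples. Of 6 fat body markers 4 were tested and *Yp3* rose, a share (25%) near that over all genes. *Yp3* had 4, 124 and 76 counts in E93RNAi replicates 1 to 3 and 2, 1 and 24 in Control, so the groups overlapped. Fat body sums were 103 to 132 CPM in E93RNAi and 110.1 to 128 CPM in Control. Of 6 hemocyte markers 5 were tested and none passed (38.6 to 57.9 CPM in E93RNAi and 51.2 to 55.1 CPM in Control). Midgut markers were at or near 0 in all samples, at most 0.325 CPM in sum.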

How the data were processed

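Each sample came with a deposited table of unnormalized gene counts. Summary lines for reads outside genes were left out: per sample, 2.65% to 2.93% of the listed reads lay in no feature, 1.93% to 2.04% were ambiguous and 8.47% to 8.85% had several alignments. Per the submitters' processing notes, cutadapt 1.8, STAR 2.5.3a, HTSeq 0.9.1 and build BDGP6 were used. Libraries were poly(A)-selected and directional, made from 100 ng RNA, per the labels' protocols. The strand setting of the counting is not given in the sources used here.

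Symbols came from a table that paired 17560 of 17698 identifiers. Positions, exon lengths and overlaps came from Ensembl release 115 (BDGP6.54). Genes passing filterByExpr (9237) were TMM-scaled and entered a quasi-likelihood fit of group alone (glmQLFTest of edgeR 4.0.16 in R 4.3.3, beside limma 3.58.1), with Benjamini-Hochberg adjustment. CPM are gene counts over TMM-scaled library totals. Summed levels had exact permutation tests. SE came from the F statistic. The fit was tested on simulated data. Floors cover counting error only. 3 replicates are called biological by the study's design.

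Per the labels, replicates were grown in pairs, and no label ties a pair to a replicate number. In the data same-numbered samples deviated together (correlations 0.151, 0.129 and 0.119 over 8103 genes), so the block is given where it changes a call. Alternatives were DESeq2 1.42.0, limma voom, other scalings and filters, a threshold of 0.01 and leaving out each library. The members and lists were chosen with earlier results of these data known. Every called member is named, the 12 with the largest change and a mean of at least 20 counts sample by sample, with the 3 highest members per length that were not called in each family, and called genes of the lists. Other genes were named after their values were seen. Members shown with each sample's value beyond these 12 were also chosen afterwards.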

Additional observations from a re-analysis of the deposited data

How the results depend on the processing

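No called member changed direction in the 13 alternatives to the fit, and 23 of the 30 kept their call in each of them. The other 7 (*GstD3*, *GstE1*, *GstE13*, *GstO2*, *Ugt302C1*, *Ugt35C1* and *Ugt36A1*) lost it in 38 of their fits, and the cause was not tested. The number of called members stayed within 1.5 times of 30. It was 25 with DESeq2, 33 with the replicate block (29 shared), 22 at an adjusted p under 0.01, and 24 to 29 without a library (Ugt 9 to 11, Gst 13 to 17, Est 1). Over all genes the stricter threshold left 1482 of 2248 genes, and leaving out a library gave 1711 to 2155. Library totals put the median over all tested genes at 0.0275 log2 units, and 64% of the calls were then rises, against 56.7%. The block changed no call of a member other than those given with it above.

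Some values near 0 changed sign. The log2 ratio of the Gst sum, 0.00118, was -0.00382 with DESeq2 size factors and between -0.0324 and 0.0366 without a library. That of the Ugt sum was -0.253 to -0.191 and that of the Est sum -0.531 to -0.43 without a library, and -0.0543 without *Est-6*. *Ugt49C1* was at -0.0021 with DESeq2 size factors and with DESeq2, -0.0013 without a filter, and -0.037 to 0.061 without a library. *Est-Q* was at 0.0062 with library totals. Without a library *GstE4* was at -0.070 to 0.016, *Est-Q* at -0.27 to 0.15 and *Est-P* at -0.32 to 0.059. Low counts limit the 17 untested members, of which *GstD4* passed without a filter.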
